A study of Mus musculus with 2 samples.

Results

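The genes described here were 36 genes of autophagy and of mitophagy, its mitochondrial form. They were chosen by name from the known machinery of the pathway, and all 36 were found among the 20330 Ensembl identifiers of the expression table. The table came from adipose tissue macrophages (ATM), the macrophages that live in or enter fat, of C57BL/6 mice. ATM were sorted from visceral fat by flow cytometry with antibodies to F4/80 and CD11b, and their poly(A) RNA was sequenced, with 1 library for each genotype. The WT mice were hMRP8cre-;Hif-1αfl/fl;ApoE-/- and the KO mice were hMRP8cre+;Hif-1αfl/fl;ApoE-/-, so ApoE was absent and Hif-1α was flanked by loxP sites in both. The KO mice alone carried the Cre recombinase, driven by the human MRP8 promoter, which is active in myeloid cells. All mice ate a high-fat diet for 12 weeks, begun at 4 weeks of age, and whether a library held cells of 1 animal or of several is not given in the sources used here.

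Autophagy encloses part of the cytoplasm in a double membrane, the autophagosome, which then fuses with the lysosome so that its content is digested. A kinase complex around ULK1 starts the process, a lipid kinase complex marks the membrane with phosphatidylinositol 3-phosphate, and small ubiquitin-like proteins of the LC3 and GABARAP family are coupled to the growing membrane, where they bind cargo. In mitophagy the cargo is a mitochondrion, tagged by receptors in its outer membrane or by ubiquitin. BNIP3 and its relative BNIP3L (NIX) are receptors of the first kind whose genes are known targets of HIF-1, the oxygen-regulated factor that Hif-1α encodes a subunit of. The comparison of KO with WT therefore asks how the transcripts of this machinery differ between ATM with and without the Cre.

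Levels are given as FPKM, the number of fragments per kilobase of transcript, scaled by all mapped fragments, and differences as the log2 of (FPKM + 1) in KO minus that in WT, a scale on which the change of weakly expressed genes is understated. A gene was compared when its FPKM was at least 1 in at least 1 library, which 10297 genes met, and it was called higher or lower when this difference reached 3-fold. Each genotype had only 1 library, so none of the differences could be checked against replicates, and no p-values are given. In bulk RNA, fewer cells of a type and less RNA per cell cannot be told apart. The smallest steps of the FPKM values corresponded to about 5860000 fragments in the WT library and 7470000 fragments in the KO library. Ratios of FPKM (KO over WT) are given below with exact (Clopper-Pearson) 95% intervals from the estimated number of fragments, which reflect counting error alone and treat every fragment as a separate molecule, although some may be PCR copies.

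The sorted cells carried macrophage RNA in both libraries. Of 12 macrophage markers, 11 were matched, among them the sort markers Adgre1 (F4/80) and Itgam (CD11b), and none of the 11 passed 3-fold or was at 0. Their summed level was 16469 FPKM in WT and 15917 in KO. Hif1a itself had 30.4 FPKM in WT and 21.0 in KO, a difference of −0.52, as a value of the whole gene in which the loxP-flanked part was not analysed separately. Over all genes compared, 13.6% were higher and 13.7% lower past 3-fold, 51.3% had a positive difference, and at a mean under 5 FPKM 45.9% passed in either direction. Of 10 neutrophil markers 7 were compared, all 7 with a positive difference, and their summed level was 196.8 FPKM in WT and 570 in KO. Past 3-fold were S100a9 (63.4 and 301 FPKM) and the granule gene Ngp (0 and 2.61 FPKM), the granule gene Mmp9 was at 38.3 and 48.9 FPKM, and the granule genes Camp, Ltf and Mmp8 were listed at 0 in both. Fibroblast markers summed to 43.2 and 84.3 FPKM (5 of 6 compared, 2 higher past 3-fold), dendritic cell markers to 124.7 and 140.3 FPKM (3 of 6, 1 higher), and B cell markers to 2.75 and 6.46 FPKM (2 of 5, 1 higher). Most of the dendritic cell sum was Cd209a, at 122 and 131 FPKM. Adipocyte markers summed to 112.7 and 120.2 FPKM, with Adipoq, Plin1 and Retn at 0 in both (5 of 8 compared, 1 higher and 1 lower). Most of the adipocyte sum was Fabp4, at 90.1 and 91.4 FPKM. Endothelial markers summed to 18.7 and 16.1 FPKM (5 of 6, 1 lower), and Cd3d, Cd3e, Cd3g and Cd8a of the T cell list were at 0 in both, with Cd4 at 5.35 and 2.07 FPKM. Each of the markers past 3-fold other than S100a9 had a mean under 5 FPKM. The part of these differences in the autophagy results was not tested.

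All 36 genes were compared and none was at 0 in a library, although Optn and Atg10 met the FPKM minimum through the KO library alone. Their median level was 14.7 FPKM in both libraries, against 9.13 FPKM in WT and 9.31 in KO over all genes compared. Levels were very uneven. Gabarap, Sqstm1 and Map1lc3b, the 3 most abundant, made up 76.0% of the summed FPKM of the 36 genes in WT and 73.0% in KO, while the other 33 lay between 0.111 and 59.1 FPKM in WT (median 13.1) and between 1.24 and 64.1 FPKM in KO (median 12.9). The 36 genes together summed to 2080.2 FPKM in WT and 2272 in KO, a ratio of 1.09. This sum rests mainly on the 3 abundant genes, and the larger differences lay in less abundant ones. Annotated exons of 13 of the 36 genes overlap another gene, among them Sqstm1 (Mrnip), Map1lc3b (Zcchc14) and Atg9a (Ankzf1), and reads of such partners cannot be told apart without strand.

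Of the 36 genes, 6 passed 3-fold (16.7%), against 27.3% of all genes compared. Higher in KO were 5 genes, Optn, Atg10, Wipi2, Bnip3 and Ulk1, where 13.6% of all genes were higher. Lower in KO was 1 gene, Wipi1, where 13.7% of all genes were lower. A further 8 genes differed between 2- and 3-fold, Pink1, Atg16l1, Gabarapl1 and Atg7 higher and Gabarapl2, Becn1, Atg5 and Fundc1 lower, and the other 22 were within 2-fold. With a pseudocount of 5 in place of 1, only Optn and Ulk1 of the 6 genes still passed 3-fold. The share past 3-fold depended on the level. Among genes with a mean under 5 FPKM, 45.9% of all genes passed, and 1 of 4 autophagy genes (Atg10). At 5 to 20 FPKM the share was 26.6%, and 4 of 19 autophagy genes passed (Bnip3, Optn, Wipi1 and Wipi2). At 20 to 100 FPKM it was 9.8%, and 1 of 10 passed (Ulk1). At 100 FPKM or more it was 2.14%, and none of the 3 autophagy genes passed. In each of these ranges the count of autophagy genes was close to or below the share of all genes, so that the number of genes past 3-fold does not set the pathway apart.

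**Figure D1:**
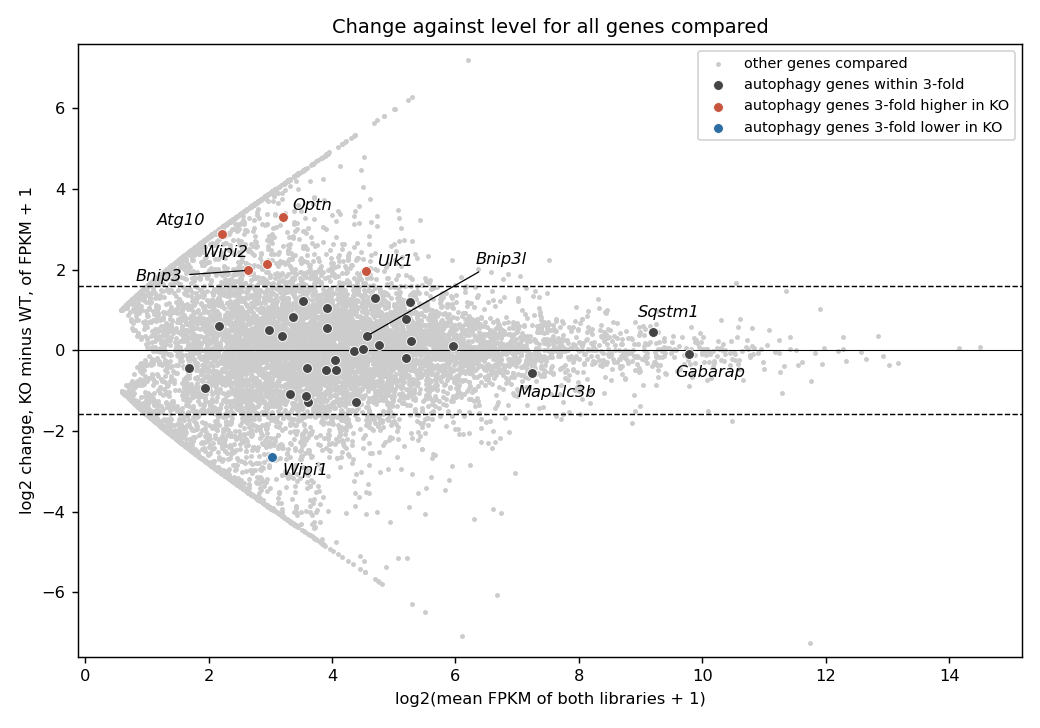
Difference between the libraries (vertical axis, log2 of FPKM + 1, KO minus WT) against level (horizontal axis, log2 of mean FPKM + 1) for the 10297 genes compared (grey points) and the 36 autophagy genes (larger points, coloured where past the dashed 3-fold lines). The 6 coloured genes lie at low to middle levels where grey points also spread past the lines, and the 3 most abundant genes, at the right, lie within them.

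The median difference of the 36 genes was 0.18, against 0.03 for all genes compared, with 21 genes above 0 and 15 below. Their median absolute difference was 0.58, against 0.87 for all genes compared, but this order depended on the level. It was 0.76 against 1.48 under 5 FPKM and 0.29 against 0.52 at 20 to 100 FPKM, and it was the other way round at 5 to 20 FPKM (1.04 against 0.86), which held 19 of the 36 genes, and at 100 FPKM or more (0.46 against 0.30). Across the 36 genes the levels in WT and KO had a Pearson r of 0.80 and a Spearman rho of 0.69 on the log2 scale, against 0.75 and 0.71 across all genes compared, where genes are not independent replicates and each pair of values shares the same 2 libraries.

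The bases before the start of a gene are shown for 4 of the 5 genes that were higher in KO, because BNIP3 in particular is known as a gene that HIF-1 binds. They are RefSeq promoters of GRCm38.p6, 250 bases up to the RefSeq start, and such an entry was matched for 29 of the 36 genes. Pik3c3, Atg16l1, Rb1cc1, Bnip3l, Map1lc3a, Becn1 and Atg12 had no entry. Windows of Wipi1 and Wipi2, which precede the RefSeq start but lie inside the gene as GENCODE annotates it, are not shown. Capitals mark ACGTG or GCGTG, the core of the element that HIF binds, on either strand, so that CACGT and CACGC are marked as well. Bnip3 lies at chr7:138909507-138909756, Optn at chr2:5064118-5064367, Ulk1 at chr5:110810082-110810331 and Atg10 at chr13:91223988-91224237, all on the minus strand.
Bnip3: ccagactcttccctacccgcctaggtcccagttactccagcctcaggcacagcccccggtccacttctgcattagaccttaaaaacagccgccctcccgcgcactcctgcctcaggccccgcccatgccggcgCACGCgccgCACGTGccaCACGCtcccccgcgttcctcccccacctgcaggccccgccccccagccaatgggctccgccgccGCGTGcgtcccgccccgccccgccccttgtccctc
Optn: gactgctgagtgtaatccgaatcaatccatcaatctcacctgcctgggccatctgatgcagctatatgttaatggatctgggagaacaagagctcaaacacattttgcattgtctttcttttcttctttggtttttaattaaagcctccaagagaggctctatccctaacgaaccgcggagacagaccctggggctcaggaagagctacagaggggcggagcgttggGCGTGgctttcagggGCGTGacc
Ulk1: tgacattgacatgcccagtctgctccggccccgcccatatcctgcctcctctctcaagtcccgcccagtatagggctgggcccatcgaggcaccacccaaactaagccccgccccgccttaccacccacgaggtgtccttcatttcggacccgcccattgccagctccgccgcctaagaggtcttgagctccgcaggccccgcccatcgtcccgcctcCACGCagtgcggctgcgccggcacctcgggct
Atg10: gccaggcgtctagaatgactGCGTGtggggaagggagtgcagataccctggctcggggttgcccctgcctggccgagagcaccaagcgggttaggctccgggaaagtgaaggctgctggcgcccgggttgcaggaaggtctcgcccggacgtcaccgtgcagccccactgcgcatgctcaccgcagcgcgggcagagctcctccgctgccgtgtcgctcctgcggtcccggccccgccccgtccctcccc
The Bnip3 window held 5 matches, of which a pair overlap in 1 CACGTG, the palindrome that TFEB and related factors also bind. Optn held 2 matches, close to the start, and Ulk1 and Atg10 held 1 each. At least 1 match was present for 25 of the 29 autophagy genes (86.2%, with Wipi1 and Wipi2 counted), for 62.2% of the 8120 compared genes with a promoter and for 38.6% of all 32851 promoters. A gene with several promoters was counted once, if any held a match, so shares of genes and of promoters are in unlike units. CACGTG was present for 4 of the 29 (13.8%), Bnip3, Atg3, Atg5 and Atg7, against 10.3% of compared genes and 6.02% of all promoters. The median GC content was 59.6% for the 29 genes and 60% for the compared genes. A match is a run of letters and not a measured binding site. Genes with matches lay on both sides of 0 in the comparison, since Bnip3 (5 matches) was higher in KO and Map1lc3b (also 5) had a difference of −0.56.

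**Figure D2:**
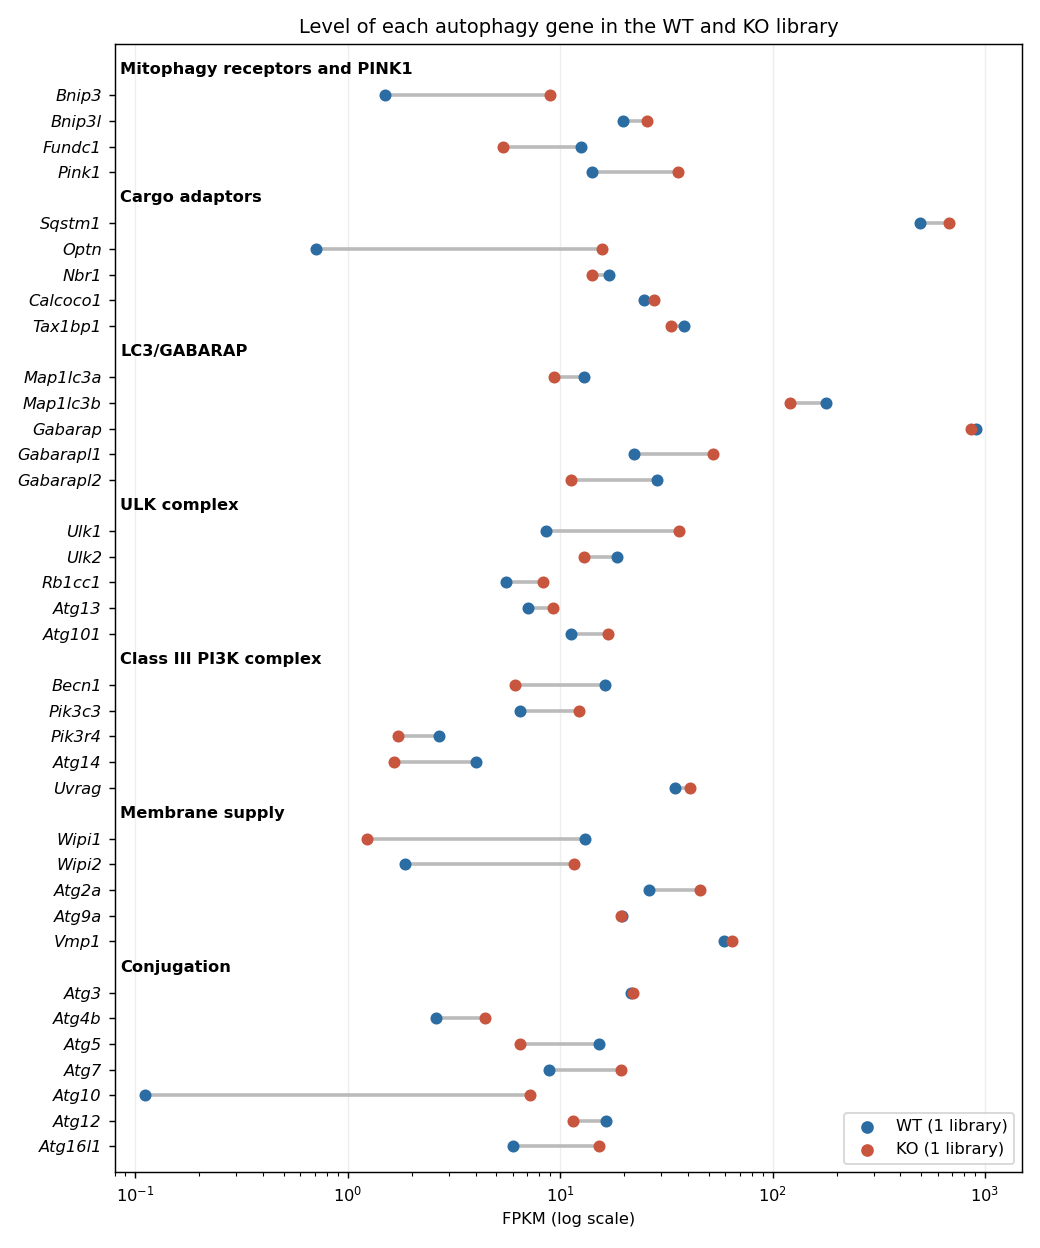
FPKM of each of the 36 autophagy genes on a log axis, in the WT library (blue) and the KO library (red), grouped by role, with a grey line joining the 2 values of a gene. Long lines mark Optn, Atg10, Wipi1, Wipi2, Bnip3 and Ulk1, and the points of Gabarap, Atg9a and Atg3 nearly coincide.

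Among the mitophagy receptors, Bnip3 was higher in the KO library and Bnip3l was within 2-fold. Bnip3 (ENSMUSG00000078566, chr7:138890836-138909519 in GRCm38, minus strand), whose product recruits LC3 to mitochondria, had 1.51 FPKM in WT and 8.93 in KO. The difference was 1.98 and the ratio 5.92 (3.39 to 10.4), from about 16 and 117 fragments. An annotated antisense gene, Gm45507, overlaps its exons, and whether the counting used strand is not given in the sources used here. Bnip3l (ENSMUSG00000022051, chr14:66985239-67008877) had 19.8 FPKM in WT and 25.8 in KO, a difference of 0.36 and a ratio of 1.30 (1.14 to 1.48). Bnip3l was the more abundant of the pair in both libraries, and Bnip3 was 7.07% of their sum in WT and 25.7% in KO. Fundc1, an outer-membrane receptor linked to hypoxic mitophagy, had 12.5 FPKM in WT and 5.36 in KO (difference −1.09, ratio 0.429, 0.321 to 0.566). Pink1, the kinase that gathers on damaged mitochondria and phosphorylates ubiquitin there, had 14.1 FPKM in WT and 35.8 in KO (difference 1.29, ratio 2.54, 2.16 to 2.999). The 4 genes together went from 47.9 to 75.9 FPKM (ratio 1.58), and the most abundant was Bnip3l in WT, with 41.4% of the sum, and Pink1 in KO, with 47.2%.

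Other genes known to be switched on through HIF in low oxygen were read beside Bnip3. Of 15 listed, 12 were compared, none was higher past 3-fold and 4 were lower, beside the 13.6% and 13.7% of all genes given above, and 8 of the 12 had a negative difference, with a median of −0.80. Of the 4 lower genes, Egln1 (18.1 and 0.865 FPKM), Pdk1 (4.46 and 0 FPKM) and Car9 (4.36 and 0 FPKM), named after their values were seen, were under 1 FPKM in KO, at mean levels where 26.6% (Egln1) and 45.9% (Pdk1 and Car9) of all genes passed in either direction. Among those with at least 1 FPKM in both libraries, Hilpda, a lipid droplet protein, had 148.7 FPKM in WT and 7.30 in KO (difference −4.17). Ddit4, an inhibitor of mTORC1 signalling, was at 19.1 and 5.98 FPKM (−1.52), and Ldha, which makes lactate, was at 106 and 57.1 FPKM (−0.88). The 3 highest differences of these genes were those of the glucose carrier Slc2a1, at 15.4 and 42.0 FPKM (1.39), P4ha1, at 11.02 and 17.7 FPKM (0.63), and Ndrg1, at 35.0 and 38.9 FPKM (0.15). Bnip3 had a larger positive difference than any of these 12 genes with a pseudocount of 1, but with a pseudocount of 5 it had 1.098 and Slc2a1 1.202. The 4 genes lower past 3-fold had differences of larger size than that of Bnip3.

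Cargo adaptors link ubiquitin-tagged material to LC3, and of these Optn alone passed 3-fold. Optn (ENSMUSG00000026672, chr2:5020642-5064051, minus strand), the adaptor optineurin, which acts downstream of PINK1, had 0.706 FPKM in WT and 15.8 in KO. The difference was 3.30 and the ratio 22.4 (12.1 to 44.6), from about 11 and 309 fragments. It was the largest difference among the 36 genes on this scale, whereas Atg10 had the larger FPKM ratio and, with a pseudocount of 0.1, the larger difference (5.11 against 4.30). Its exons overlap an antisense gene, 4930551O13Rik. Sqstm1, which encodes p62 and is both adaptor and substrate of autophagy, was the second most abundant of the 36 genes, at 493 FPKM in WT and 679 in KO. Its difference was 0.46 and its ratio 1.38 (1.34 to 1.42), and by rank among the genes compared it stood at 189 in WT and 131 in KO. The other adaptors were close to even. Nbr1, a relative of p62, was at 17.1 and 14.2 FPKM (−0.25), Calcoco1, an adaptor for the endoplasmic reticulum and Golgi, at 24.9 and 27.5 FPKM (0.14), and Tax1bp1 at 38.3 and 33.2 FPKM (−0.20). The 5 adaptors summed to 574 FPKM in WT and 769.9 in KO, a ratio of 1.34, of which Sqstm1 was 85.9% and 88.2%.

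Among the LC3 and GABARAP genes the sum differed little and the minor members differed in opposite directions. Gabarap, the most abundant of the 36 genes, had 910.2 FPKM in WT and 858 in KO (−0.08, ratio 0.943, 0.914 to 0.973), which placed it at rank 105 and 103 of the genes compared. Map1lc3b, which encodes LC3B, the usual marker of autophagosomes, was at 179 and 121 FPKM (−0.56, ratio 0.676, 0.639 to 0.714). Gabarapl1 had 22.2 FPKM in WT and 52.6 in KO (1.21, ratio 2.37, 2.05 to 2.76). Its relative Gabarapl2 differed the other way, at 28.7 and 11.2 FPKM (−1.28, ratio 0.392, 0.318 to 0.482). Gabarapl1 was therefore 43.6% of this pair in WT and 82.4% in KO, while the pair as a whole went from 50.9 to 63.8 FPKM. Map1lc3a was at 12.9 and 9.34 FPKM (−0.43, ratio 0.724, 0.528 to 1.004). None of the 5 passed 3-fold, 4 had a negative difference, and the sum was 1153 FPKM in WT and 1052 in KO, a ratio of 0.913. How fragments that map to several places were divided among these related genes is not given in the sources used here.

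**Figure D3:**
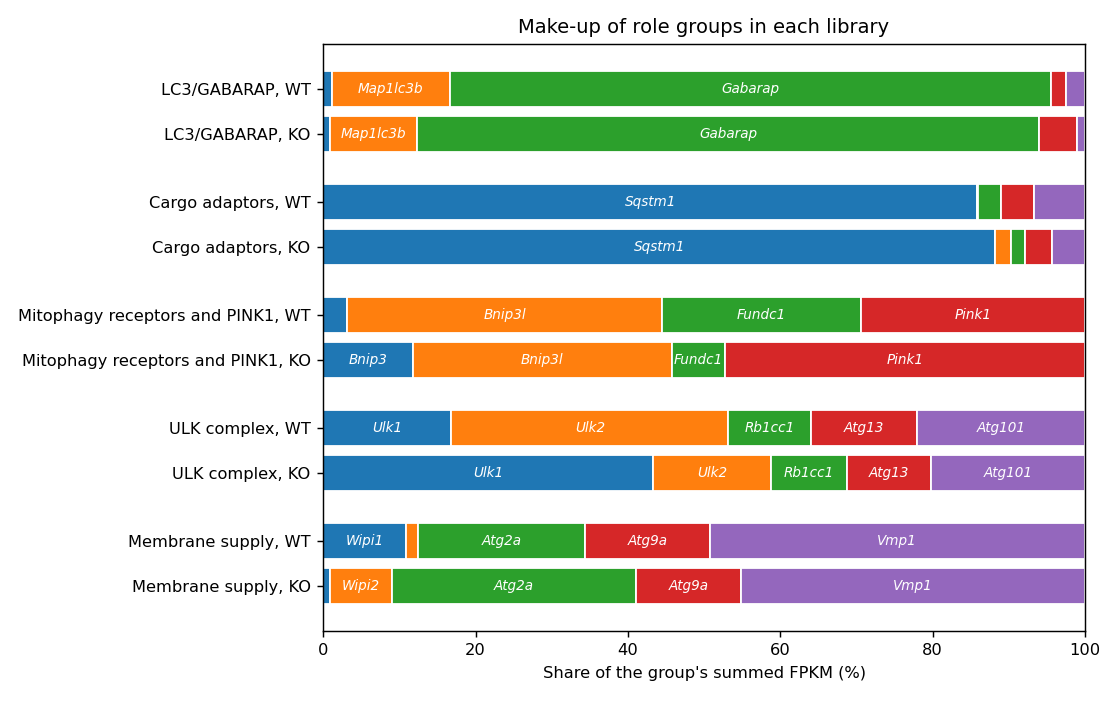
Share of each gene (horizontal axis, % of the summed FPKM of its group) in the WT and KO library for 5 role groups, with narrow segments unlabelled and segments in the same order in both bars of a group. Gabarap and Sqstm1 fill most of their groups in both libraries, whereas the order of Ulk1 and Ulk2, and of Wipi1 and Wipi2, differs between the libraries.

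In the ULK complex, which starts autophagosome formation, Ulk1 was higher in KO and 4 of the 5 genes had a positive difference. Ulk1 (ENSMUSG00000029512, chr5:110784488-110810097, minus strand), the kinase itself, had 8.57 FPKM in WT and 36.3 in KO (1.96, ratio 4.23, 3.70 to 4.84), from about 262 and 1412 fragments. Of the 6 genes past 3-fold it had the most fragments. Ulk2, its close relative, was at 18.5 and 12.9 FPKM (−0.49, ratio 0.698, 0.621 to 0.784). The order of the kinases was thus reversed, and Ulk1 was 31.6% of their sum in WT and 73.7% in KO. The scaffold Rb1cc1 (FIP200) was at 5.55 and 8.31 FPKM (0.51), Atg13 at 7.04 and 9.27 FPKM (0.35) and its partner Atg101 at 11.2 and 16.9 FPKM (0.55). The median difference of the complex was 0.51, and its sum went from 50.9 to 83.7 FPKM (ratio 1.64), the largest ratio among the role groups. Most of this rise was that of Ulk1, which was 16.8% of the sum in WT and 43.3% in KO.

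The class III phosphatidylinositol 3-kinase complex had no gene past 3-fold, and its members differed in both directions. Becn1, the Beclin regulatory subunit, had 16.3 FPKM in WT and 6.15 in KO (−1.28, ratio 0.377, 0.316 to 0.446). Its exons overlap those of Cntd1 on the other strand. Pik3c3, the catalytic subunit VPS34, was at 6.46 and 12.2 FPKM (0.83, ratio 1.89, 1.54 to 2.36). Pik3r4, the VPS15 subunit, was low in both, at 2.70 and 1.73 FPKM (−0.44), as was Atg14, which directs the complex to autophagosomes, at 4.04 and 1.65 FPKM (−0.92). Uvrag, which takes the place of ATG14 in a second form of the complex, was the most abundant of the 5, at 34.8 and 40.8 FPKM (0.22). Atg14 was the lower of these alternative subunits in both libraries. The group summed to 64.3 FPKM in WT and 62.5 in KO, a ratio of 0.973, and its median difference was −0.44.

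Among the genes that supply membrane, the PI3P-binding pair Wipi1 and Wipi2 had the largest differences, in opposite directions. Wipi1 (ENSMUSG00000041895, chr11:109573331-109611967, minus strand) had 13.1 FPKM in WT and 1.24 in KO. Its difference of −2.65 was the lowest among the 36 genes, with a ratio of 0.0948 (0.0635 to 0.139) from about 255 and 31 fragments. Wipi2 (ENSMUSG00000029578, chr5:142627698-142670588, plus strand), which brings ATG16L1 to the membrane, was at 1.85 and 11.6 FPKM (2.14, ratio 6.25, 4.74 to 8.42). Their sum was 14.9 FPKM in WT and 12.8 in KO, and Wipi1 was 87.6% of it in WT and 9.65% in KO. How often other pairs of genes change order between these libraries was not tested. The other genes of the group differed less. Atg2a, a lipid transfer protein that works with WIPI proteins, was at 26.3 and 45.5 FPKM (0.77). Atg9a, a lipid scramblase carried on vesicles, was at 19.6 and 19.4 FPKM, with a difference of −0.01 that turned to 0.03 when both libraries were scaled to the same FPKM sum. Vmp1, a scramblase of the endoplasmic reticulum, was the most abundant of the group at 59.1 and 64.1 FPKM (0.12).

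Conjugation couples ATG12 to ATG5 and LC3 to lipid, and its genes spread to both sides of 0. Atg7, the E1-like enzyme that both reactions need, had 8.86 FPKM in WT and 19.3 in KO (1.04, ratio 2.17, 1.85 to 2.57). Atg10 (ENSMUSG00000021619, chr13:90935356-91223968, minus strand), the E2-like enzyme for ATG12, had 0.111 FPKM in WT and 7.19 in KO (2.88). The WT value stands for about 1 fragment and the KO value for about 85, so that its ratio of 64.8 had an interval from 11.7 to 2665. Atg3, the E2-like enzyme for LC3, was even, at 21.5 and 22.1 FPKM (0.04). Atg16l1, which places the ATG12 and ATG5 conjugate on the membrane, was at 5.98 and 15.2 FPKM (1.21, ratio 2.54, 2.04 to 3.17). Its partners differed the other way, Atg5 being at 15.3 and 6.45 FPKM (−1.13, ratio 0.421, 0.331 to 0.530) and Atg12 at 16.5 and 11.5 FPKM (−0.48). The protease Atg4b, which trims LC3 before coupling, was at 2.60 and 4.43 FPKM (0.59). The 7 genes summed to 70.9 FPKM in WT and 86.1 in KO (ratio 1.22), and their median difference was 0.59. This median was 0.04 over the genes with a mean of at least 5 FPKM, where Atg10 and Atg4b were not compared.

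Set side by side, the role groups had summed ratios from 0.913 (LC3 and GABARAP) to 1.64 (ULK complex, mostly through Ulk1). As sums of related genes, Wipi1 with Wipi2 differed by −0.20, Gabarapl1 with Gabarapl2 by 0.32, Bnip3 with Bnip3l by 0.68 and Ulk1 with Ulk2 by 0.84, while Map1lc3a with Map1lc3b differed by −0.56, close to Map1lc3b alone.

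Further genes of the pathway were read from a list of 69, of which 65 were compared. Of the 65, 12 were higher and 5 lower past 3-fold (26.2% in all, against the 27.3% of all genes given above), with a median difference of 0.36 and 39 genes above 0. Of the 12 higher genes, 7 were under 1 FPKM in WT, and among the 54 genes with at least 1 FPKM in both libraries 5 were higher and 4 lower, 9 in all, where 11.5% of all genes with that level in both passed 3-fold. The largest positive differences among the 54 were those of Ccpg1, a receptor for autophagy of the endoplasmic reticulum, at 2.70 and 36.3 FPKM (3.33), the mTORC1 component Akt1s1, at 1.798 and 19.96 FPKM (2.90), and Usp30, a deubiquitinase that opposes mitophagy, at 3.92 and 21.8 FPKM (2.21). The largest negative differences were those of Prkag1, a regulatory subunit of AMPK, at 36.3 and 3.48 FPKM (−3.06), Vps39, a subunit of the HOPS tethering complex, at 19.3 and 2.44 FPKM (−2.56), and the mitochondrial phosphatase Pgam5, at 8.17 and 1.07 FPKM (−2.15). Wdr45, a further relative of the WIPI proteins, Vps16, another HOPS subunit, and Mlst8, a subunit of the mTOR complexes, were listed at 0 in WT and at 22.1, 9.40 and 8.22 FPKM in KO. Of the 65 genes, 6 were at 0 in WT and 1 in KO, where 17.1% of all genes compared were at 0 in 1 library.

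By role, the further genes of initiation had 3 of 8 higher and none lower (median 0.77), and those of conjugation 2 of 6 higher and none lower (median 0.86), beside 13.6% higher and 13.7% lower among all genes. Of these 5 higher genes, 4 were under 1 FPKM in WT and all had a mean under 20 FPKM, where 45.9% (under 5 FPKM) or 26.6% (5 to 20 FPKM) of all genes passed in either direction. In fusion with the lysosome 1 of 12 was higher and 1 lower (median 0.31), and in other selective autophagy 2 of 9 were higher and 1 lower (median 0.41). The 12 further mitophagy genes compared had 1 higher and 2 lower past 3-fold, with a median difference of 0.01. Upstream control had 3 of 18 higher and 1 lower (median −0.10). Its transcription factors were within 2-fold. Tfeb, which drives lysosomal and autophagy genes, was at 22.6 and 22.9 FPKM, and Tfe3 was at 81.1 and 67.0 FPKM.

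**Figure D4:**
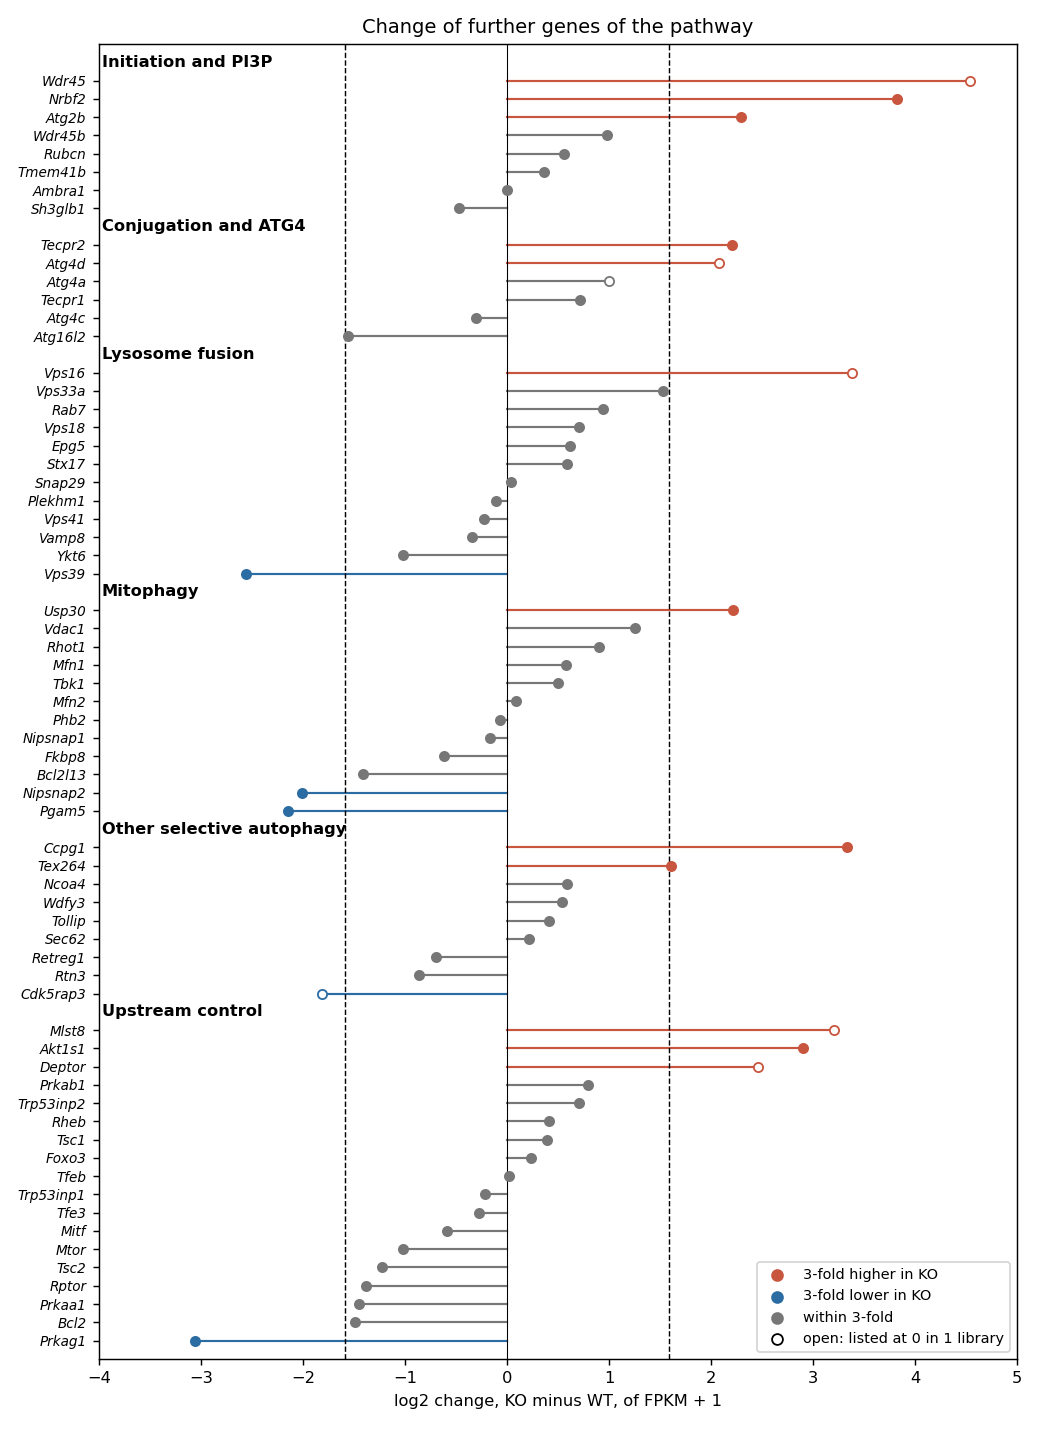
Difference (horizontal axis, log2 of FPKM + 1, KO minus WT) of the 65 further pathway genes that were compared, by role, with dashed lines at 3-fold and open points for genes listed at 0 in 1 library. The 12 genes higher and 5 genes lower past 3-fold are spread over the roles, and Tfeb, with a difference of 0.02, lies near 0.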

How the data were processed

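Poly(A) RNA of sorted ATM was sequenced, with 1 WT and 1 KO library. The submitters' processing notes name CASAVA 1.8.2, TopHat2 2.0.9, Cufflinks 2.2.1 and the build mm9, without roles or annotation. The authors deposited FPKM per Ensembl gene, already divided by transcript length and library size, so no count model was used.

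Of 20749 rows, 401 full repeats were dropped and 18 further rows of an identifier were summed, none of them for the 36 genes. Symbols, transcript lengths and gene coordinates came from GENCODE M21 (GRCm38), promoters from RefSeq. Calculations used Python 3.11.15, numpy 2.4.6, pandas 2.3.3 and scipy 1.17.1, with a pseudocount of 1, an FPKM minimum of 1 in at least 1 library and a 3-fold threshold, and were tested on simulated data. Figures were drawn with matplotlib 3.10.9.

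Depth was estimated from genes with a single transcript, where the smallest recurring FPKM multiplied by length (0.171 in WT, 0.134 in KO, per kilobase) was taken as 1 fragment. A gene's fragments used its longest coding transcript.

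The 36 genes, role groups, marker lists, the HIF list and the further pathway list were chosen with earlier results of these data known. Named were all 36 genes, Hif1a, and from the further and HIF lists the 3 largest differences each way with at least 1 FPKM in both libraries, plus further genes at 0 in 1 library and at least 5 FPKM in the other. Tfeb, Tfe3 and the markers were named after their values were seen. Alternatives were pseudocounts of 0.1 and 5, other filters, a 2-fold threshold, the FPKM ratio, rescaling of the libraries and another treatment of repeated identifiers.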

Additional observations from a re-analysis of the deposited data

How the results depend on the processing

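Bnip3l kept a difference between 0.31 and 0.41 under the alternatives. The number of autophagy genes past 3-fold was 6 of 36 after either rescaling, and also with a pseudocount of 0.1 and on the FPKM ratio, where 36.4% and 37.1% of all genes passed. With no filter the same 2815 genes passed, since a gene under 1 FPKM in both libraries cannot reach 3-fold on this scale, and their share fell to 13.8% only because more genes were counted. With a pseudocount of 5 it was 2 (2 higher, 0 lower; Optn and Ulk1), against 7.01% of all genes compared, and the Bnip3 difference was 1.10. With at least 1 FPKM in both libraries, Optn and Atg10 were not compared, so that 4 of 34 genes passed (3 higher, 1 lower), against 11.5% of all genes. With a 2-fold threshold 14 passed (9 higher, 5 lower), against 45.6%. The further pathway genes past 3-fold were 7 of 65 with a pseudocount of 5 (7.01% of all genes), 9 of 54 with at least 1 FPKM in both libraries (11.5%), 10 of 48 with a mean of at least 5 FPKM (18.1%), 28 of 65 at 2-fold (45.6%), and 23 of 65 both with a pseudocount of 0.1 (36.4%) and on the FPKM ratio (37.1%). The median difference of the class III complex was 0.22 over its genes with a mean of at least 5 FPKM, where Pik3r4 and Atg14 were not compared, and that of the adaptors was −0.03 without Optn. For the conjugation genes it was 0.32 with at least 1 FPKM in both libraries, without Atg10. With a mean of at least 5 FPKM, without Atg10 and Atg4b, it was 0.04. The median of the 36 genes stayed between 0.13 and 0.22. No paired analysis was possible because a single library stands for each genotype. Depth limits the low values most: the WT values of Atg10, Optn and Bnip3 rest on about 1, 11 and 16 fragments, and the spread between animals of a genotype is not known.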
